A study of Mus musculus with 16 samples.

Results

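Genes for 7 transcription factors that build and maintain the gonad were measured in the ovaries of estrogen receptor (ER) knockout mice: Nr5a1, Nr5a2, Nr0b1, Gata4, Gata6, Gata1 and Wt1. They were found by gene name, or by the current symbol of the probe's accession, which gave 11 probes for the 7 genes among 24372 features tested. RNA came from whole ovaries of mice aged 1 year and was hybridised to single-colour Agilent arrays, 4 arrays in each of 4 groups. The control carried 1 allele of each ER, the Ex3aERKO group lacked ERα, the Ex3bERKO group lacked ERβ and the Ex3abERKO group lacked both. The labels do not say which part of each receptor gene was removed, in which cells the deletion was made, or whether the 4 samples of a group were separate animals or pools, so the p-values speak of the spread among these samples alone, and part of that spread may be technical.

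Nuclear receptors of the NR5A family bind DNA as single molecules and drive the genes for cholesterol uptake and steroid synthesis. GATA4 and GATA6 work beside them in granulosa and theca cells, whereas GATA1 is best known from red cells, megakaryocytes and mast cells, and in the gonad from Sertoli cells. WT1 is needed for the gonad to form and marks the surface epithelium, stroma, early granulosa cells and, in the testis, Sertoli cells. NR0B1 (DAX1) binds NR5A proteins and dampens their activity.

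Levels are log2 of the processed signal over the array's 75th percentile, so a level of 0 equals that percentile, and they are compared only within a probe. The probe with the highest mean signal represented each gene, and these 7 probes were well above background on all 16 arrays. Differences are given ± the standard error of the limma model with adjusted p-values, and a difference was called at an adjusted p under 0.05. The array's 75th percentile ranged from 1211 to 1806 units and 80.4% to 87.6% of the spots on an array were well above background. Control 4 stood apart from the other control arrays in erythroid genes, Ex3aERKO 2 from all arrays in liver genes and Ex3abERKO 2 in oviduct genes. Results were also computed without these 3 arrays. As a check of the labels, Esr1, the ERα gene, lay between -3.66 and -1.89 in Ex3aERKO and between -2.11 and -1.04 in Ex3abERKO, below the control arrays (-0.32 to 0.20). Esr2, the ERβ gene, lay between -2.54 and -1.60 in Ex3abERKO, below the controls (-0.33 to 0.34), but between -0.58 and 1.00 in Ex3bERKO, overlapping them (0.43 ± 0.51 against control), so this probe was not used as a check of the ERβ deletion in either group.

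The results below turn on 6 probes, and the first 30 of the 60 bases of each are shown because the repeat measurement of Nr5a1 and of Gata4 rests on their lying at different places in the gene. All coordinates of probes are those of the array files (mm7). The Nr5a1 probes lay on chromosome 2, minus strand, at chr2:38700812-38700871 and chr2:38708750-38708809, the Gata4 probes on chromosome 14, minus strand, at chr14:58063189-58063248 and chr14:58062775-58062796 (the file's span of 22 bases for the second), the Nr5a2 probe at chr1:136732418-136732477, minus strand, and the Wt1 probe at chr2:105024058-105024117, plus strand. Which exon or untranslated region each probe lies in was not analysed here.
Nr5a1 A_52_P616265: ccagaggataccatgagagtgggtagggca
Nr5a1 A_51_P315964: agctcagactcagaatttggcccttttaga
Nr5a2 A_51_P514449: atgcaaagacagtgattctgcatatggcct
Gata4 A_52_P4201: ctagaaaatacagactgtttgcaaaataaa
Gata4 A_51_P492355: gaagcccaccttggctgcaagcacagcaca
Wt1 A_52_P673458: cactggtaagactgttcttaagtaacttaa

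In Ex3abERKO ovaries 4 of the 7 genes differed from the control: Nr5a1, Nr5a2 and Gata4 fell and Wt1 rose. Over all features 22.3% were called in this comparison, 10.6% higher and 11.7% lower. No member was called in Ex3aERKO against control, where 8.03% of features were, and none in Ex3bERKO against control, where 1.01% were. Before adjustment, a limma p under 0.05 was reached by 1 member in the first of these (Wt1), beside 5125 of 24372 features. In the second it was reached by 1 member (Gata1), beside 2388 features. Ex3aERKO and Ex3bERKO were not separated by any member either, against 2.34% of all features. Before adjustment Gata1 alone passed there, beside 3207 features.

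**Figure D1:**
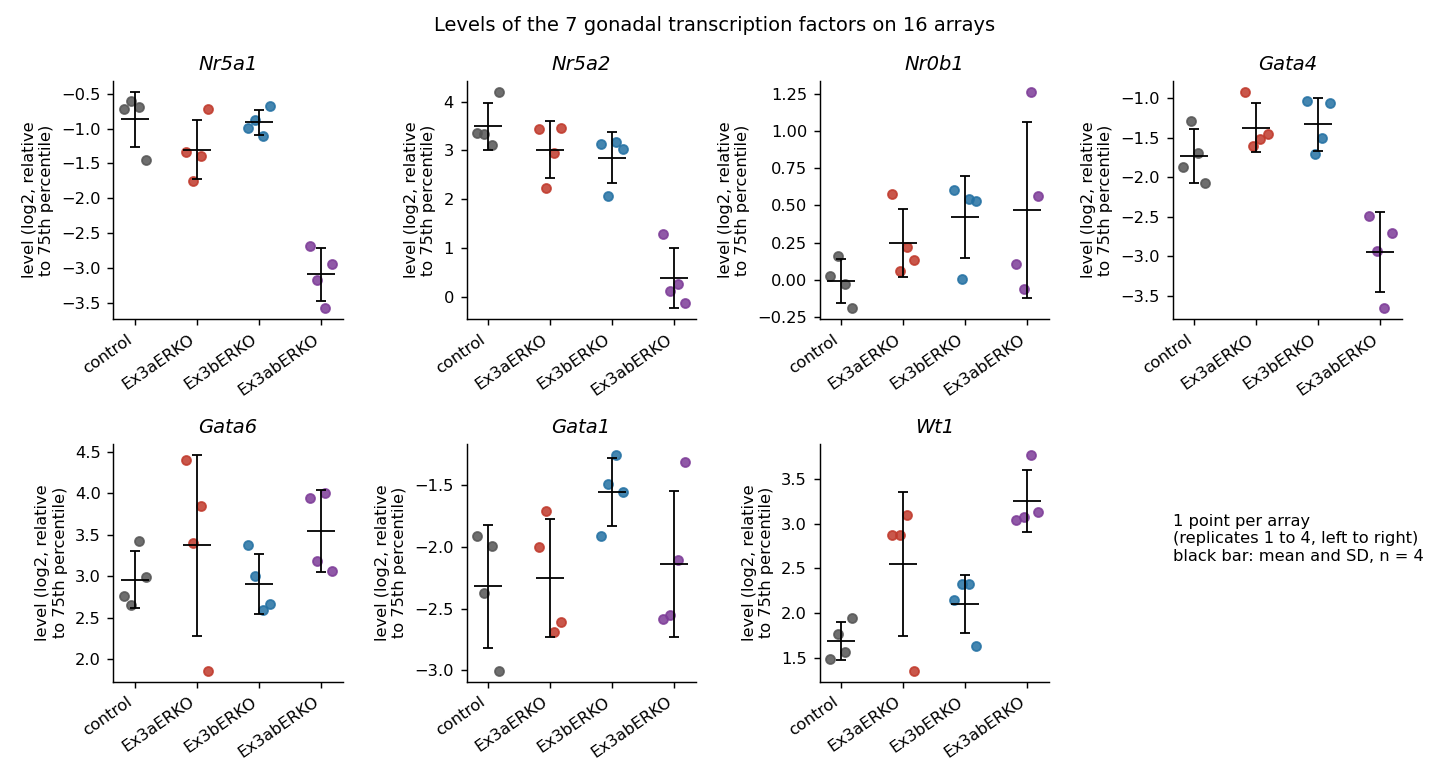
Level of each gene on 16 arrays (y axis, log2 relative to the array's 75th percentile; 1 panel per gene) in the 4 groups (x axis), with the group mean and SD (n = 4) in black. The Ex3abERKO points lie apart from the control points for Nr5a1, Nr5a2, Gata4 and Wt1, and overlap them for Nr0b1, Gata6 and Gata1.

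Nr5a1 encodes SF-1, the master regulator of steroid-making cells. Its level was -0.72, -0.60, -0.69 and -1.45 on the control arrays 1 to 4, and -2.69, -3.17, -3.58 and -2.94 on the Ex3abERKO arrays. It was -1.33, -1.76, -1.40 and -0.73 in Ex3aERKO, and -0.997, -0.87, -1.11 and -0.68 in Ex3bERKO. Every Ex3abERKO array lay below all 12 others, while the other 3 groups overlapped. The level was 4.68-fold lower in Ex3abERKO than in the control (log2 difference -2.23 ± 0.25, adjusted p = 7.68e-05). It was lower by nearly as much against Ex3bERKO (-2.18 ± 0.25, adjusted p = 0.000172), and against Ex3aERKO the difference was -1.79 ± 0.25 (adjusted p = 0.00118). Between Ex3abERKO and Ex3bERKO 4 members were called (Nr5a1, Nr5a2 and Gata4 lower, Wt1 higher) against 16.6% of all features, 8.41% lower and 8.23% higher. Between Ex3abERKO and Ex3aERKO 3 were called, the same but Wt1, against 7.73% of all features and 3.32% lower. In order of mean level, control (-0.87), Ex3bERKO (-0.91) and Ex3aERKO (-1.30) did not differ beyond their spread from neighbour to neighbour, and Ex3abERKO (-3.09) stood below.

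The other Nr5a1 probe gave a difference of -1.85 ± 0.30 between Ex3abERKO and control (adjusted p = 0.000671), with all 4 Ex3abERKO arrays (-5.02 to -3.98) below all 4 controls (-3.45 to -2.34). In Ex3aERKO the probes gave -0.44 ± 0.25 and -0.50 ± 0.30 (adjusted p = 0.363 and 0.389), and in Ex3bERKO -0.04 ± 0.25 and -0.03 ± 0.30. The Ex3aERKO difference was called in 1 of 28 settings, with array weights (adjusted p = 0.0492).

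Nr5a2 encodes LRH-1, which in the ovary is made by granulosa and luteal cells and is needed for ovulation and luteal function. Its level was 3.35, 3.34, 3.10 and 4.198 on the control arrays and 1.27, 0.11, 0.26 and -0.12 on the Ex3abERKO arrays. In Ex3aERKO it was 3.44, 2.22, 2.94 and 3.45, and in Ex3bERKO 3.12, 2.07, 3.17 and 3.04. The Ex3abERKO arrays again lay below the other 12, without overlap, and Ex3aERKO 2 and Ex3bERKO 2 were the lowest of their own groups. Nr5a2 fell by 3.11 ± 0.37 on the log2 scale against control, an 8.66-fold lower level (adjusted p = 0.000104), and its difference was -2.63 ± 0.37 against Ex3aERKO (adjusted p = 0.00118) and -2.47 ± 0.37 against Ex3bERKO (adjusted p = 0.000805). The single knockouts differed from the control by -0.48 ± 0.37 and -0.65 ± 0.37 (adjusted p = 0.545 and 0.649), so the order control (3.50), Ex3aERKO (3.01) and Ex3bERKO (2.85) was within the spread.

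Among members with a RefSeq promoter entry (assembly GRCm38.p6, a later build than that of the probes), Nr5a2 was the one that changed, and the 250 bases before each of its 2 listed starts are shown because Gata4 fell in the same group of ovaries. The entries are chr1:136960399-136960698 and chr1:136953581-136953880, on the minus strand of chromosome 1. Capitals mark the GATA words searched on both strands as AGATAA with its variant AGATAG, and as TGATAA with its variant TGATAG. They were found 3 times before the first start and 1 time across the second, beginning at -5, so that its last letter lies beyond the bases shown; the matches did not overlap.
Nr5a2 start 1: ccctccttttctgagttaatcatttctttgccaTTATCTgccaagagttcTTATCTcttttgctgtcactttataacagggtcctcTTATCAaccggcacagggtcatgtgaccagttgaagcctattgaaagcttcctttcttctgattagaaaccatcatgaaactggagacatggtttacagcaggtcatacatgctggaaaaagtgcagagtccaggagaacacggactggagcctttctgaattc
Nr5a2 start 2: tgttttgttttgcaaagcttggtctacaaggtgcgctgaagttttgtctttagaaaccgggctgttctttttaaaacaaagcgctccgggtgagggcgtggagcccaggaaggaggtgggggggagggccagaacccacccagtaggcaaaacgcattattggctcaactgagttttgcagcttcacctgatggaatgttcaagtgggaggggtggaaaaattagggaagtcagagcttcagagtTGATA
Such words stood in 29.8% of 32851 promoters of the same length, so a match there is common and describes the letters alone. The words began at -217, -200 and -164 from the first start and at -5 from the second. The NR5A words CAAGGTCA and CAAGGCCA (in 3.92% of all promoters), the E-box CACGTG (7.15%) and the WT1 word GCGTGGG (5.04%) were not among the letters of these windows, nor were any of the searched words in the windows of Gata1 and Nr0b1. Entries for Nr5a1, Gata4, Gata6 and Wt1 were not used here.

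Nr0b1 is X-linked and its product binds both NR5A proteins. Its level was 0.03, 0.16, -0.03 and -0.19 on the control arrays, and 0.58, 0.06, 0.22 and 0.13 with ERα lost. With ERβ lost it was 0.60, 0.01, 0.54 and 0.53, and with both lost 0.11, -0.06, 1.26 and 0.56. All 4 groups overlapped, and Ex3abERKO 3 was the highest array. Differences from the control were 0.26 ± 0.25 in Ex3aERKO, 0.43 ± 0.25 in Ex3bERKO and 0.48 ± 0.25 in Ex3abERKO (adjusted p = 0.660, 0.657 and 0.196), so no fall beside that of its binding partners was measured. Nr0b2, a second nuclear receptor without a DNA-binding domain that binds LRH-1, did fall in Ex3abERKO, from between -3.43 and -2.52 in the control to between -4.80 and -4.11 (-1.34 ± 0.24, adjusted p = 0.00147).

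GATA4 switches on steroid-making and inhibin genes in granulosa and theca cells. Gata4, read as the mean of up to 10 spots per array, was at -1.86, -1.28, -1.70 and -2.08 in the control and at -2.49, -2.93, -3.66 and -2.70 in Ex3abERKO. In Ex3aERKO it was at -0.92, -1.61, -1.51 and -1.45, and in Ex3bERKO at -1.03, -1.71, -1.51 and -1.06. The Ex3abERKO arrays lay below all others, and both single knockouts overlapped the control with higher means (-1.37 and -1.33 against -1.73). Gata4 fell by 1.22 ± 0.26 against control, to a level 2.32-fold lower (adjusted p = 0.00463), and the differences were larger against Ex3aERKO (-1.57 ± 0.26, adjusted p = 0.00342) and Ex3bERKO (-1.62 ± 0.26, adjusted p = 0.00141). The 10 spots of an array differed with a median SD of 0.084, and 15 spots were left out as outliers.

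The second Gata4 probe, 1 spot per array, gave -0.83 ± 0.16 for Ex3abERKO against control (adjusted p = 0.00226). Its Ex3abERKO arrays lay between -3.54 and -3.27 and its control arrays between -2.97 and -2.34, again without overlap. Its differences in Ex3aERKO (0.19 ± 0.16) and Ex3bERKO (0.14 ± 0.16) had the sign of those of the first probe (0.36 ± 0.26 and 0.40 ± 0.26), and none of the 4 passed.

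**Figure D2:**
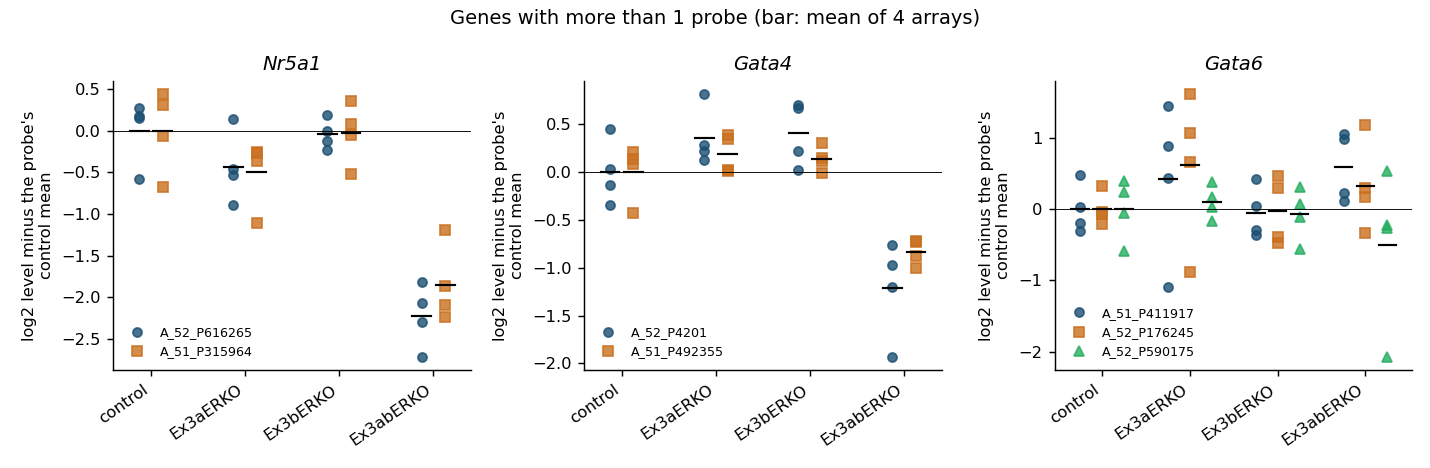
Level of each probe minus that probe's control mean (y axis, log2) in the 4 groups (x axis) for the 3 genes with more than 1 probe; points are arrays and bars are means of 4 arrays. Both probes of Nr5a1 (-2.23 and -1.85) and of Gata4 (-1.22 and -0.83) are lower in Ex3abERKO, whereas the 3 Gata6 probes spread around 0.

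GATA6 acts in the same cells as GATA4 and can take over some of its work in the ovary. Gata6, on chromosome 18, was at 2.77, 2.66, 3.43 and 2.99 on the control arrays and at 4.40, 3.395, 3.84 and 1.86 on the Ex3aERKO arrays. It was at 3.37, 3.01, 2.60 and 2.66 on the Ex3bERKO arrays and at 3.94, 3.19, 4.01 and 3.07 on the Ex3abERKO arrays. The groups overlapped, and Ex3aERKO held both the highest and the lowest array. Differences from the control were 0.42 ± 0.43, -0.05 ± 0.43 and 0.59 ± 0.43 (adjusted p = 0.685, 0.996 and 0.374). The 3 Gata6 probes did not give 1 sign in Ex3abERKO: the others gave 0.33 ± 0.45 and -0.51 ± 0.42, and the last of these was well above background on 15 arrays.

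GATA1 is the erythroid and mast cell member of the family. Its level was -1.91, -2.38, -1.99 and -3.00 on the control arrays and -1.996, -1.71, -2.69 and -2.61 on the Ex3aERKO arrays. On the Ex3bERKO arrays it was -1.91, -1.49, -1.25 and -1.55, and on the Ex3abERKO arrays -2.58, -2.55, -2.11 and -1.31. All groups overlapped. The largest difference from the control was in Ex3bERKO (0.77 ± 0.32, adjusted p = 0.416), against 0.07 ± 0.32 in Ex3aERKO and 0.18 ± 0.32 in Ex3abERKO (adjusted p = 0.949 and 0.760). Gata1 was also read from 10 spots per array, whose median SD was 0.068.

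WT1, a zinc finger protein, both activates and represses genes of the gonad and kidney. Wt1 was at 1.49, 1.76, 1.56 and 1.95 on the control arrays and at 2.88, 2.87, 3.10 and 1.35 on the Ex3aERKO arrays. On the Ex3bERKO arrays it was at 2.14, 2.32, 2.33 and 1.63, and on the Ex3abERKO arrays at 3.04, 3.07, 3.78 and 3.13. The Ex3abERKO arrays lay above all control and Ex3bERKO arrays and overlapped Ex3aERKO, where 3 arrays were high and Ex3aERKO 4 was the lowest of all 16. Wt1 rose by 1.57 ± 0.32 in Ex3abERKO, to 2.96-fold the control level (adjusted p = 0.00332). Against Ex3bERKO it was higher by 1.15 ± 0.32 (adjusted p = 0.0259), a call lost with the slide as a fixed block (adjusted p = 0.0926), without the 3 arrays that stood apart (0.0630), without Ex3bERKO 1 (0.0543), without Ex3bERKO 4 (0.0878) and without Ex3abERKO 3 (0.0570). Against Ex3aERKO the difference was 0.71 ± 0.32 (adjusted p = 0.218).

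In Ex3aERKO, Wt1 differed from the control by 0.86 ± 0.32 (adjusted p = 0.128). Without Ex3aERKO 4 the difference was 1.26 (adjusted p = 0.00380) and passed, as it did with array weights (1.18, adjusted p = 0.00228). In order of mean level, control (1.69), Ex3bERKO (2.11), Ex3aERKO (2.55) and Ex3abERKO (3.26) each overlapped the next, and no neighbouring pair was called.

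**Figure D3:**
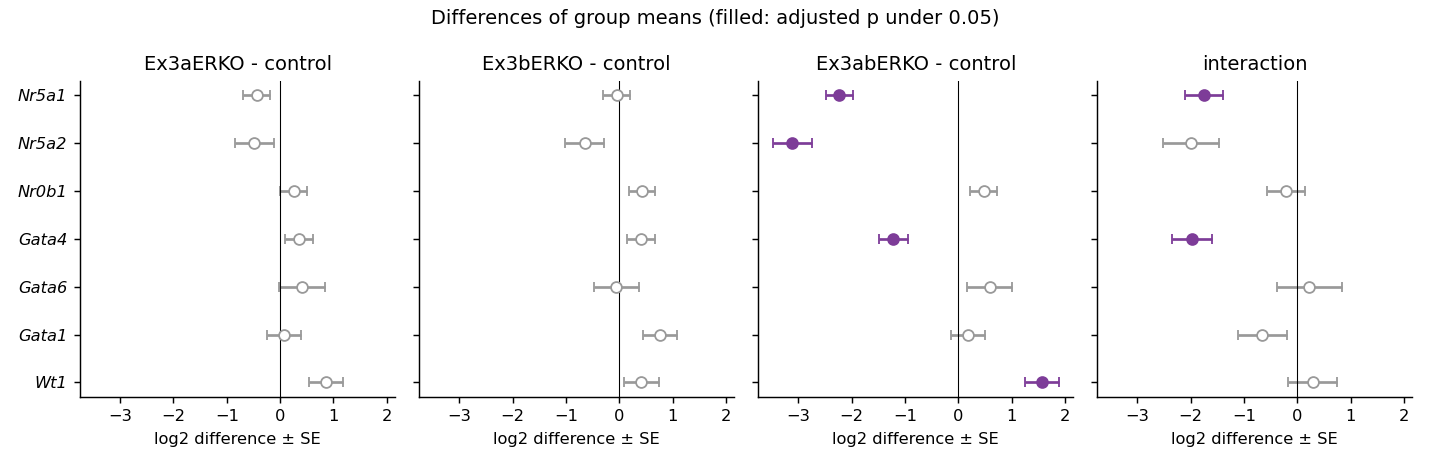
Log2 difference ± SE (x axis) of each gene (y axis) in 3 comparisons with the control and in the interaction contrast; filled points had an adjusted p under 0.05. In both single knockouts all 7 points are open, and in Ex3abERKO those of Nr5a1 (-2.23), Nr5a2 (-3.11), Gata4 (-1.22) and Wt1 (1.57) are filled.

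The interaction contrast takes the difference between Ex3abERKO and Ex3aERKO and subtracts the difference between Ex3bERKO and control, and so asks whether loss of both receptors differed from the sum of the single losses. It was called for 2 members, Nr5a1 (-1.75 ± 0.35, adjusted p = 0.0155) and Gata4 (-1.98 ± 0.37, adjusted p = 0.0105), where 3.56% of all features were called, 1.74% lower. Both were therefore lower in Ex3abERKO than the single knockouts add up to. For Nr5a2 the contrast was as large but less precise (-1.99 ± 0.52, adjusted p = 0.05004), and it passed in 10 of 26 settings. For Wt1 it was 0.29 ± 0.46 (adjusted p = 0.842), for Gata1 -0.65 ± 0.45, for Nr0b1 -0.21 ± 0.35 and for Gata6 0.23 ± 0.60 (adjusted p = 0.544, 0.854 and 0.917).

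These interaction calls were lost under some settings. With normexp background correction that of Nr5a1 was -1.33 (adjusted p = 0.0651) and that of Gata4 -1.41 (adjusted p = 0.0626). The other Nr5a1 probe gave -1.32 ± 0.42 (adjusted p = 0.111), and the other Gata4 probe -1.16 ± 0.23 (adjusted p = 0.0135). Without the 3 arrays that stood apart Gata4 had an adjusted p of 0.0610.

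The file headers gave 4 scan dates for the 16 arrays, and arrays sharing a date are called a slide here. Slides 1, 2 and 4 held both control and Ex3abERKO arrays. Within these slides the difference was -2.86, -1.47 and -2.25 for Nr5a1, -3.09, -3.50 and -3.22 for Nr5a2, -1.79, -0.63 and -1.01 for Gata4 and 2.29, 1.11 and 1.57 for Wt1. All 12 of these values had the sign of the pooled difference. As Ex3abERKO and control did not overlap for these genes, that sign was fixed beforehand and is no further check on the slides. For Wt1 in Ex3aERKO the values on slides 1 to 4 were 1.39, 1.15, 1.12 and -0.21, the last from the slide with Ex3aERKO 4. Gata1 in Ex3bERKO was higher than the control on each of the 3 slides that held both groups (0.42, 0.64 and 0.74).

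**Figure D4:**
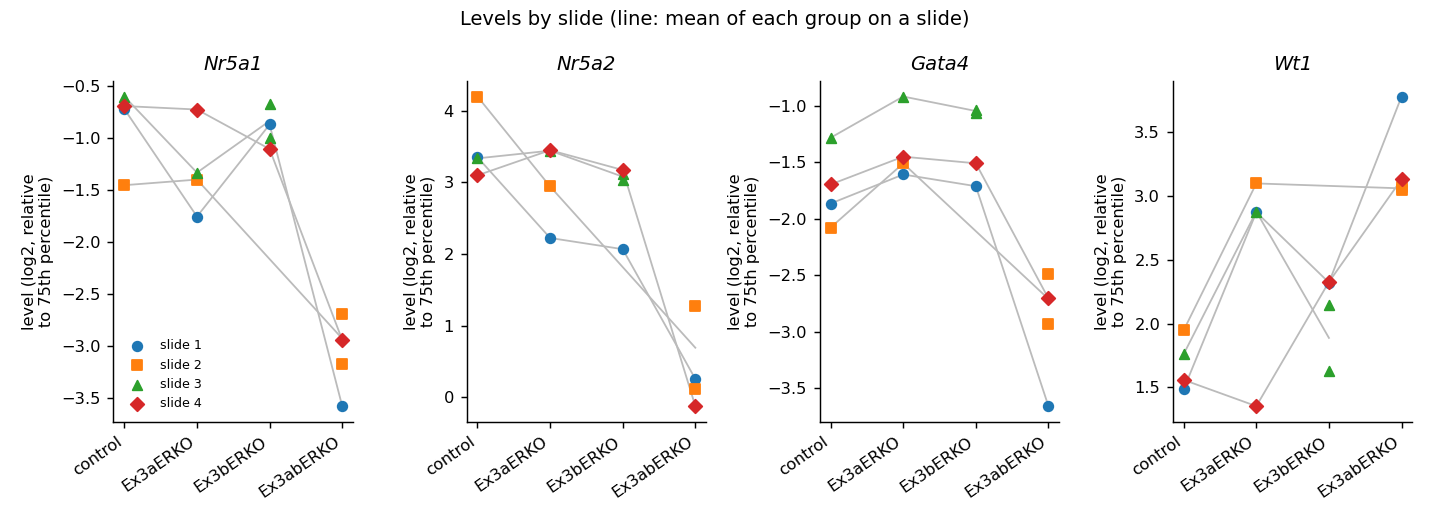
Level (y axis, log2 relative to the 75th percentile) of the 4 genes called in Ex3abERKO, by group (x axis); each point is an array, its marker shows the slide, and lines join the group means of a slide. On every slide that held both groups Ex3abERKO lies below the control for Nr5a1, Nr5a2 and Gata4 and above it for Wt1. This follows from the lack of overlap between these groups.

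Genes that NR5A1 is known to drive are those of cholesterol uptake, steroid synthesis and gonadotropin and inhibin signalling. Of 20 measured, 11 fell and 4 rose in Ex3abERKO against control, with a median difference of -1.27 beside -0.10 over all features. Of all features 11.7% were called lower in this comparison and 10.6% higher. Cyp11a1, which makes the first steroid from cholesterol, fell by 3.48 ± 0.32 (adjusted p = 1.87e-05). Scarb1, the receptor that takes up cholesterol from lipoproteins, fell by 2.68 ± 0.32 (adjusted p = 0.000109). Fdxr, an enzyme of the electron chain that serves CYP11A1, fell by 2.58 ± 0.29 (adjusted p = 8.34e-05). Without the 3 arrays that stood apart, 10 fell and 1 rose.

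The same genes moved both ways in Ex3aERKO, where Nr5a1 was not called: 5 rose and 6 fell, with a median of 0.21. Of all features 8.03% were called in this comparison. There Cyp17a1, the enzyme of androgen synthesis, rose by 2.76 ± 0.38 (adjusted p = 0.000701), Insl3, a theca and Leydig hormone, rose by 6.90 ± 1.18 (adjusted p = 0.00273) and Cyp11a1 fell by 1.94 ± 0.32 (adjusted p = 0.00218). When the 3 arrays were left out 2 rose and 1 fell. In Ex3bERKO 1 rose, Cyp17a1 (2.75 ± 0.38, adjusted p = 0.00297), and 1 fell, Star, the carrier of cholesterol into mitochondria (-2.63 ± 0.44, adjusted p = 0.00957). With the 3 arrays left out 1 rose and 0 fell in Ex3bERKO.

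Cell type genes moved in the same comparison as Nr5a1, Nr5a2 and Gata4, where 11.7% of all features were called lower and 10.6% higher. In Ex3abERKO 6 of 10 luteal genes, 5 of 12 granulosa genes and 4 of 10 theca genes fell, with 0, 0 and 1 higher, and 4 of each list fell with the 3 arrays left out. Of these lists 3, 5 and 5 genes are also among the 20 NR5A1 targets. The summed level of theca genes was 6.28 to 7.18 in Ex3abERKO and 8.22 to 8.75 in the control, and that of granulosa genes 5.78 to 7.13 against 7.29 to 8.12. For luteal genes it was 5.13 to 6.197 against 6.98 to 8.69, but also 4.997 to 6.68 in Ex3aERKO and 5.09 to 7.67 in Ex3bERKO, where Nr5a2 was not called. All genes of these 3 lists were well above background on all 16 arrays. In whole ovaries fewer cells of a type and less RNA per cell cannot be told apart, and the part of these cell types in the falls of Nr5a1, Nr5a2 and Gata4 was not tested.

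Of 20 cofactors and partners of the NR5A and GATA proteins, 4 rose and 1 fell in Ex3abERKO, a share near the 22.3% of all features called in this comparison, with a median of 0.23. Besides Nr0b2, Ncoa3, a coactivator of nuclear receptors, rose by 0.74 ± 0.15 (adjusted p = 0.00237) and Ppargc1a, a coactivator of metabolic genes, rose by 1.21 ± 0.28 (adjusted p = 0.00757). With the 3 arrays left out 1 rose and 1 fell. Of the FOG cofactors of GATA4, Zfpm2 rose by 0.75 ± 0.25 (adjusted p = 0.0461), whereas Zfpm1 differed by -0.24 ± 0.25 (adjusted p = 0.572). Nr2f2 (COUP-TFII, an opponent of SF-1 in stroma) differed by 0.20 ± 0.24 and Lhx9, which acts with WT1 on Nr5a1 in the early gonad, by 0.30 ± 0.35 (adjusted p = 0.634 and 0.614).

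Of the other genes of the GATA family, Gata2 and Gata3 rose in Ex3abERKO and Gata5 did not pass. Gata2, which acts in blood progenitors and mast cells, lay between -1.27 and -0.67 in the control and between -0.06 and 1.01 in Ex3abERKO, above all 12 other arrays, of which the highest was at -0.42. It rose by 1.42 ± 0.24 (adjusted p = 0.000874), and its interaction was 1.47 ± 0.34 (adjusted p = 0.0267). Gata3, known from lymphocytes and epithelia, rose by 1.27 ± 0.36 (adjusted p = 0.0204) and Gata5, well above background on 3 of 4 control arrays, differed by 0.34 ± 0.52 (adjusted p = 0.709). Without the 3 arrays, or with the slide as a fixed block, 1 of these 3 genes was called.

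Markers of the blood cells that use GATA1 and GATA2 were read beside them. Of all features 10.6% were called higher in Ex3abERKO against control. Of 9 mast cell genes, 7 rose in Ex3abERKO, among them the proteases Cpa3 (5.003 ± 0.76, adjusted p = 0.000483), Cma1 (4.52 ± 0.57) and Mcpt4 (4.31 ± 0.49), while Kit differed by -0.75 ± 0.32 (adjusted p = 0.114); 7 of the 9 were well above background on all 16 arrays, and 7 also rose with the 3 arrays left out. The summed level of the mast cell genes was 2.19 to 2.58 in the control, 2.69 to 3.05 in Ex3bERKO, 3.28 to 3.93 in Ex3aERKO and 4.60 to 5.24 in Ex3abERKO, 4 ranges that did not overlap. Gata1 showed no such order, with all 4 groups overlapping. The part of mast cells in the Gata2 level was not tested.

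Megakaryocyte genes gave 2 of 8 higher in Ex3abERKO, Pf4 (2.57 ± 0.34) and Gp1ba (2.09 ± 0.44, well above background on 3 of 4 control arrays), and erythroid genes 1 of 9, Epor (1.28 ± 0.21), which is also made outside the red cell line. In this comparison 22.3% of all features were called, 10.6% higher. With the 3 arrays left out 3 erythroid genes rose, and with the slide as a fixed block 1 rose and 1 fell. The summed erythroid level was 3.35, 3.42 and 3.98 on control arrays 1 to 3 and 7.06 on control 4. Control 4 was thus the highest of the 16 arrays in erythroid genes and, at -3.00, the lowest in Gata1.

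**Figure D5:**
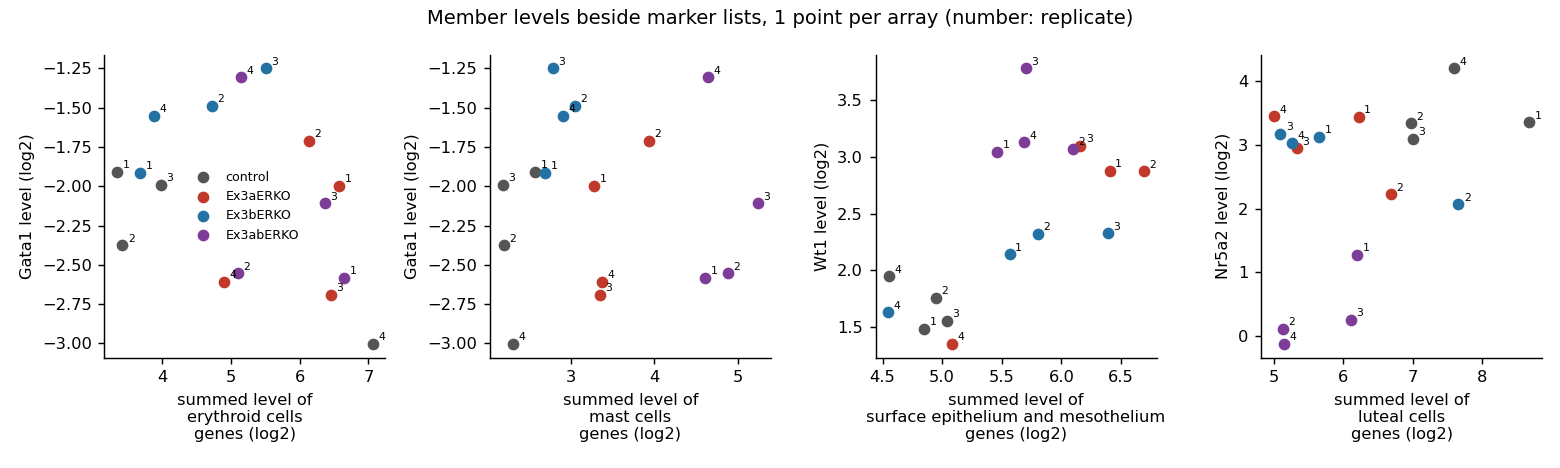
Level of a gene (y axis, log2) against the summed level of a marker list (x axis, log2 of the summed signal relative to the 75th percentile), 1 point per array with its replicate number. Control 4 is highest in erythroid genes and lowest in Gata1. The groups are apart in mast cell genes but not in Gata1. Ex3aERKO 4 is the lowest of all 16 arrays in Wt1. In surface epithelium genes it is the lowest of its group only (5.08), above the control arrays (4.56 to 5.04). Ex3abERKO is lowest in Nr5a2 while its luteal sum overlaps the single knockouts.

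WT1 was read beside 2 cell types that make it. Of 12 genes of the surface epithelium and mesothelium, 6 rose in Ex3aERKO and 4 in Ex3abERKO, and none fell. Their summed level was 6.40, 6.69, 6.16 and 5.08 on Ex3aERKO arrays 1 to 4, so the array with the lowest Wt1 was also the lowest of its group here, and it was 4.56 to 5.04 in the control and 5.46 to 6.09 in Ex3abERKO. In Ex3bERKO the sums were 5.57, 5.80, 6.39 and 4.55, and only the third lay above every Ex3abERKO array. The Wt1 level in Ex3bERKO was 1.63 to 2.33. The marker sums of Ex3abERKO lay above that of Ex3aERKO 4 and below those of Ex3aERKO arrays 1 to 3. The part of the surface epithelium in the Wt1 level was not tested. Without the 3 arrays that stood apart 0 of these genes passed in Ex3aERKO and 1 in Ex3abERKO.

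Sertoli cells of the testis keep Wt1, and of 15 Sertoli genes 11 rose and 1 fell in Ex3abERKO, 7 rose in Ex3aERKO and 2 in Ex3bERKO; with the 3 arrays left out 9, 4 and 0 rose. Of all features 22.3%, 8.03% and 1.01% were called in these comparisons, in that order. Among the Sertoli genes Sox8, a partner of SOX9, rose by 2.89 ± 0.32 in Ex3abERKO (adjusted p = 6.54e-05). It was well above background on 2 of 4 control arrays. The junction gene Cldn11 rose by 4.66 ± 0.46 (adjusted p = 2.87e-05). Rhox5 rose by 2.70 ± 0.22 in Ex3aERKO (adjusted p = 5.22e-05). In Ex3abERKO Rhox5 was lower than in Ex3aERKO (-3.62 ± 0.22, adjusted p = 1.94e-06), where 6 Sertoli genes were higher and 1 lower. For the Sertoli genes the levels were also summed. The summed level was 6.56 to 7.50 in Ex3abERKO and 6.69 to 7.46 in Ex3aERKO, above the control (5.96 to 6.46). In Ex3bERKO it was 6.40 to 7.03, overlapping the control and the other knockouts. Of the 15, 12 were well above background on all 16 arrays. The list was chosen with earlier results of these data known, so its counts describe these genes and are no separate support. The part of either cell type in the rise of Wt1 was not tested.

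Known target genes of WT1 gave 4 higher and 0 lower of 14 in both Ex3aERKO and Ex3abERKO, with medians of 0.28 and 0.35. Of all features 8.03% and 22.3% were called in these comparisons. In Ex3abERKO Bcl2, a survival gene, rose by 0.96 ± 0.20 (adjusted p = 0.00332), Erbb3, a growth factor receptor, by 1.33 ± 0.29 (adjusted p = 0.00456) and Pdgfa, a growth factor, by 0.67 ± 0.20 (adjusted p = 0.0261). In Ex3aERKO Erbb3 (1.62 ± 0.29, adjusted p = 0.00334), Amhr2, the receptor of anti-Müllerian hormone (0.96 ± 0.21, adjusted p = 0.0121), and Podxl, a surface sialoprotein of podocytes and mesothelium (1.26 ± 0.28, adjusted p = 0.0131), led. Without the 3 arrays 1 was higher in Ex3aERKO and 2 in Ex3abERKO.

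Of 17 other factors of early gonad formation, 3 rose and 1 fell in Ex3abERKO, a share near the 22.3% of all features called in this comparison. Gadd45g, a signalling protein needed for testis determination, rose by 1.11 ± 0.19 (adjusted p = 0.000949), and Cbx2, a Polycomb protein that acts upstream of Nr5a1 in the early gonad, fell by 1.60 ± 0.34 (adjusted p = 0.00379). The counts were the same without the 3 arrays. In Ex3aERKO, where 8.03% of all features were called, 2 rose, among them Osr1, a factor of the intermediate mesoderm (1.54 ± 0.38, adjusted p = 0.0218). Without the 3 arrays none did.

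Across the 16 arrays, the 5 genes most like each member were taken by Pearson's r, as a description over arrays that share groups and slides. Nr5a1 was followed most closely by Exoc3l (r = 0.977), Adck5, Ftsj3, Brd9 and Cdk3, and Nr5a2 by Nde1 (r = 0.946) and Lhcgr, the receptor of luteinising hormone (r = 0.939), then Iars2, Camk2g and Gpr89. Gata4 was followed by Carmil3 (r = 0.950), Fkbp4, Trib2, Rnf185 and Selenoo, and Wt1 by Slc16a7 (r = 0.967), Abca9, Frmd4b, Tnfaip8 and Plxna4. For the 3 members that were not called the closest genes were less alike: Septin6 for Nr0b1 (r = 0.854), Pip5k1b for Gata6 (r = 0.819) and Ret for Gata1 (r = 0.786). Group differences were left in these levels, so a member that differs between groups can follow the many other features that do. The lower r of the uncalled members is therefore no further result.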

How the data were processed

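Single-colour Agilent arrays of total RNA from 16 whole-ovary samples were read as spot intensity values, made by the authors with Agilent Feature Extraction (version 9.5, per the submitters' processing notes), which had subtracted background within each array, per the file headers. The deposited series table held the same intensity values for 41174 of 41174 probes (relative tolerance 0.001), so it was linear and uncentred (medians of its columns 149 to 253). Each processed signal was divided by its array's 75th percentile and taken to log2. Outlier spots (54 to 106 per array) were left out, saturated spots (0 to 7) kept, and spots of a probe averaged. Probes well above background on at least 4 of 16 arrays were kept, with 1 probe per gene. The model was limma 3.58.1 (R 4.3.3; lmFit and eBayes, all 16 arrays, no covariate), adjusted by Benjamini-Hochberg over 24372 features; it was tested on simulated data. Groups came from the sample titles, and slides were inferred from the scan dates in the file headers. Replicates of a group correlated with r from 0.954 to 0.986. The number of arrays limits the precision.

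The members and the gene lists were chosen with earlier results of these data known, so the counts of the lists are descriptions and not tests. The text names all 7 members, the 5 genes most like each, up to 3 called genes of a list with the smallest adjusted p, and 5 partners (Zfpm1, Zfpm2, Nr0b2, Nr2f2 and Lhx9); Gata2, Gata3 and Gata5 are the whole list of other GATA genes, and the mast, megakaryocyte and erythroid genes named were chosen after their values were seen. A gene that this rule names among the early gonad factors is not reported here. Marker sums are log2 of the summed relative signal. Alternatives were normexp, quantile or median scaling, other filters on dim probes, each array left out, other probes, only the groups compared, and the slide or replicate number as a block; leaving out 3 arrays, the slide as a random block and array weights were added after seeing the data. Liver, oviduct, oocyte and adrenal lists were also read.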

Additional observations from a re-analysis of the deposited data

Results flagged for a closer look

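Of 28 sets of 4 arrays (7 genes in 4 groups), 5 held an array whose gap to the nearest other exceeded Dixon's limit for 4 values, which chance passes in about 1 of 20 sets. These were Nr5a1 on control 4 (level -1.45, gap over range 0.859), Nr5a2 on Ex3bERKO 2 (2.07, 0.876), Nr0b1 on Ex3bERKO 2 (0.01, 0.882), Wt1 on Ex3aERKO 4 (1.35, 0.871) and Wt1 on Ex3abERKO 3 (3.78, 0.885). Ex3bERKO 2 was also the array of its group with the highest summed luteal level (7.67, others 5.09 to 5.65) and the lowest summed oocyte level (4.01, others 5.53 to 5.71). Ex3aERKO 4 was the lowest of its group in oocyte genes (0.41, others 1.60 to 2.62), and for Esr2 the highest of all 16 arrays (1.58).

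The interaction contrast in limma, by which the effect of losing ERα differs with the state of ERβ, was called for 2 genes: Nr5a1 (-1.75, adjusted p = 0.0155) and Gata4 (-1.98, adjusted p = 0.0105). Both calls were lost with normexp background correction (adjusted p = 0.0651 and 0.0626). That of Nr5a1 was also lost with its other probe (0.111), and that of Gata4 without the 3 arrays that stood apart (0.0610). Nr5a2 had a contrast of like size that was not called (-1.99, adjusted p = 0.05004). Without ERβ the ERα loss went with a difference of -2.18 for Nr5a1 and -1.62 for Gata4 (Ex3abERKO against Ex3bERKO), and with ERβ present with -0.44 and 0.36 (Ex3aERKO against control).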

How the results depend on the processing

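Of the 13 member calls, 10 were kept under every setting, none reversed, and among 1344 alternatives of member differences 9 lost and 13 gained a call; 47 changed the sign of a difference that was not called. Counts of features called over all genes, in the order Ex3aERKO, Ex3bERKO and Ex3abERKO against control, Ex3abERKO against Ex3aERKO, Ex3abERKO against Ex3bERKO, Ex3aERKO against Ex3bERKO and the interaction, were 1957, 247, 5437, 1883, 4055, 571 and 867. With normexp background correction they were 956, 156, 3144, 748, 1949, 232 and 339, with 0 members in the interaction. Without control 4, Ex3aERKO 2 and Ex3abERKO 2 they were 555, 63, 3208, 836, 2418, 232 and 249, with 1 member in the interaction. Fitting only the groups compared gave 85 for Ex3bERKO against control, 603, 2447 and 117 for the 3 comparisons between knockouts, and the slide as a fixed block gave 2129 for Ex3abERKO against Ex3bERKO. Array weights gave 5376 (2 members) for Ex3aERKO, 818 for Ex3bERKO and 8532 for Ex3abERKO against control, 1606 between the single knockouts and 1808 for the interaction. The cause of these shifts was not tested; the fits on fewer arrays hold fewer samples.

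Leaving out each array in turn gave 1145 to 2623, 108 to 367, 3862 to 6295, 1098 to 2257, 2372 to 5026, 282 to 873 and 508 to 1322 features, in the same order, and 0 to 1 members for Ex3aERKO against control (Wt1, without Ex3aERKO 4), 3 to 4 for Ex3abERKO against Ex3bERKO and 2 to 3 for the interaction. The third was Nr5a2, called without control 4 (adjusted p = 0.0421), Ex3aERKO 2 (0.0279), Ex3bERKO 2 (0.0291) or Ex3abERKO 1 (0.0262). Replicate numbers did not pair the arrays: deviations from group means of same-numbered arrays correlated with r from -0.296 to 0.450 (mean -0.002; 7 of 24 pairs over 0.1), and 4 of 16 arrays correlated best with their own number. With the replicate block the Nr5a2 interaction passed (adjusted p = 0.0368), and no other member call changed. Arrays of the same slide correlated with a mean r of 0.237 over 22 pairs.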

Other observations

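Oocyte genes separated the groups in another order than the NR5A genes did. Their summed level was 3.81 to 4.98 in the control and 4.01 to 5.71 in Ex3bERKO, against 0.41 to 2.62 in Ex3aERKO and 2.09 to 2.98 in Ex3abERKO. Of 10 oocyte genes 8 fell in Ex3aERKO and 6 in Ex3abERKO, and with limma none was called in Ex3bERKO. Of all features 8.03%, 22.3% and 1.01% were called in these comparisons with the control, in that order. The oocyte sums of Ex3aERKO overlapped those of Ex3abERKO, and the part of oocytes in the levels of Nr5a1, Nr5a2 and Gata4 was not tested. Without control 4, Ex3aERKO 2 and Ex3abERKO 2, 3 oocyte genes fell in Ex3aERKO and 4 in Ex3abERKO.

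Genes of the adrenal cortex, another tissue that depends on Nr5a1, gave 1 of 4 higher in both Ex3aERKO and Ex3abERKO and 0 in Ex3bERKO, and 0 in each with those 3 arrays left out. Of all features 8.03% were called in Ex3aERKO and 22.3% in Ex3abERKO against control. The summed level of liver genes was 6.48 on Ex3aERKO 2 and at most 0.55 on every other array, and 1 of 4 liver genes was called in Ex3abERKO against control (lower), and 2 with those 3 arrays left out. The summed level of oviduct genes was 6.36 on Ex3abERKO 2 and 4.57 to 5.05 on the other Ex3abERKO arrays, and 2 of 6 oviduct genes were higher in Ex3abERKO. With those 3 arrays left out 1 was higher, and with the slide as a fixed block 0 were.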
